A study of Mus musculus with 12 samples.

Results

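*Tecta*, *Tectb*, *Otoa*, *Otog*, *Coch*, *Otor* and *Oc90* encode secreted or membrane-bound proteins of the inner ear's extracellular matrices, and were followed here in hair cells, otic epithelium, mesenchyme, neurons and glia of the developing mouse cochlea. The 7 genes were chosen by name as columns of the count table, which holds 24489 genes, with earlier results of these data known. Single tdTomato-positive (TOM+) cells had been sorted from dissected cochlear tissue, 1 cell to a well of a 384-well plate, and read out by Smart-seq2, a full-length method without molecule barcodes. Each plate is 1 sample and counts as 1 replicate. There were 3 plates of E16.5 and 1 of E17.5, and 2 for every other stage (E14.5, E15.5, E18.5, P3). All mice carried the Ai14 reporter, which expresses tdTomato after Cre recombination. By the sample labels the Cre was PVcre, driven from the parvalbumin gene, on every plate except E14.5 plate 2, labelled TrkCcre (driven from *Ntrk3*). The paper's methods instead give the *Ntrk3* driver for E14.5 and the parvalbumin driver for the later embryonic stages. This conflicts with the PVcre label of E14.5 plate 1. Driver and stage therefore cannot be fully told apart where E14.5 is compared with later stages. Cochleae of several mice were pooled in each experiment, so single animals cannot be told apart. What follows therefore concerns reporter-positive cells and says nothing of cells in which these drivers were silent.

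Of 4608 wells, 4226 held a cell with more than 1000 detected genes and under 5% spike-in counts. Kept cells carried 80997594 to 303906928 counts per plate. Cells were clustered on features from which the 7 genes and the matrix gene lists used below had been removed, and clusters were named from marker genes. This gave 2279 spiral ganglion neuron (SGN)-like, 1256 glia-like and 566 otic mesenchyme (OM)-like cells. It also gave 21 inner hair cell (IHC)-like, 13 outer hair cell (OHC)-like, 33 vestibular hair cell (HC)-like and 44 otic epithelium-like cells, and 14 cells were left in other or unnamed clusters. The 376 and 125 kept cells of the P3 plates were all SGN-like. Hair cells came in numbers only at E18.5, with 14 and 16 cochlear and 13 and 13 vestibular HC-like cells on its 2 plates. The tissue taken was the spiral ganglion (the modiolus at E14.5 and E15.5). Neurons and hair cells were the cells that the reporter was meant to mark. Levels are given as CPM, the counts of a gene scaled to a fixed total of all counts in that class on that plate. In SGN-like cells the 9 neuronal markers summed to between 10570 and 13700 CPM, against 110.5 to 7489 CPM in glia-like and 38.2 to 7396 CPM in OM-like cells. The values of 3727 CPM and more in the last 2 classes all came from E16.5 plates 1 and 2 and from E18.5, where few non-neuronal cells were found. These plates also showed more detected genes per cell (medians of 8426 to 9629) than the other embryonic plates (4691 to 4983).

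The tectorial membrane is an acellular sheet that rests on the cochlear sensory epithelium and touches the outer hair cell bundles. Alpha- and beta-tectorin, the products of *Tecta* and *Tectb*, form its striated sheet matrix around collagen fibrils. Otogelin, from *Otog*, is a component of the tectorial membrane and of the gelatinous membranes over the vestibular organs, and otoancorin, from *Otoa*, sits at the interface of these membranes with the apical surface of supporting cells. Otoconin-90, from *Oc90*, is the main protein of the otoconia, the crystals that load the gravity organs. Cochlin, from *Coch*, is an abundant secreted protein of inner ear fibrocytes and, when mutated in humans, a cause of hearing and balance loss. Otoraplin, from *Otor*, belongs to a small family of secreted proteins with an SH3-like domain and is known from the periotic mesenchyme.

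The upstream sequences of 5 of the genes are shown because these genes fell into different patterns below: *Tecta*, *Tectb* and *Otog* were high in hair cells and epithelium, and *Otor* and *Coch* in mesenchyme. Each is the 250 bases before a RefSeq transcription start in GRCm38.p6 (mm10), written in the direction of the gene. The windows are chr9:42399948-42400197 on the minus strand for *Tecta*, chr19:55180476-55180725 for *Tectb* and chr7:46240737-46240986 for *Otog*, both on the plus strand. Those of *Otor* (chr2:143078143-143078392) and *Coch* (chr12:51593091-51593340) are also on the plus strand. Capitals mark matches on either strand to any of the motifs searched. The TATA box was searched as TATAAA. The E-box, a site of basic helix-loop-helix factors, was searched as CAGNTG. The core site of homeodomain factors was searched as TAATTA. The site of SOX factors was searched as ACAATG. The site of GATA factors was searched as AGATAA.
Tecta: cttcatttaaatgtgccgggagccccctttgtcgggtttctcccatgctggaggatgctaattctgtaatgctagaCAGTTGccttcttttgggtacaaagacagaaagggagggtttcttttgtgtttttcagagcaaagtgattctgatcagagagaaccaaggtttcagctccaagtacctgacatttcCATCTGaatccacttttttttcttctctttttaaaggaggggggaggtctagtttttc
Tectb: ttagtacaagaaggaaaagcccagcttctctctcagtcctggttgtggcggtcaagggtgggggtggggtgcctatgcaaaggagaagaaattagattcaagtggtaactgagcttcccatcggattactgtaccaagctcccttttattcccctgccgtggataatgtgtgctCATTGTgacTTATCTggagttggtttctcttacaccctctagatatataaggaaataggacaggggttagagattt
Otog: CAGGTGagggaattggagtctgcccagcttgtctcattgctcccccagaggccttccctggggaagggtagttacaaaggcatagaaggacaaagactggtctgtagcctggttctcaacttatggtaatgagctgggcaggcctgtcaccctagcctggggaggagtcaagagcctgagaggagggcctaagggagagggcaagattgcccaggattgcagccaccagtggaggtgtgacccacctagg
Otor: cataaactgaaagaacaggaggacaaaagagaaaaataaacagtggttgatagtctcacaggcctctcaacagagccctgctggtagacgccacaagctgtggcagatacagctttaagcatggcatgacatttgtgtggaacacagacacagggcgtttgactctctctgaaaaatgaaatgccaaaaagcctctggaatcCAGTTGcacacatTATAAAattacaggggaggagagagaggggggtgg
Coch: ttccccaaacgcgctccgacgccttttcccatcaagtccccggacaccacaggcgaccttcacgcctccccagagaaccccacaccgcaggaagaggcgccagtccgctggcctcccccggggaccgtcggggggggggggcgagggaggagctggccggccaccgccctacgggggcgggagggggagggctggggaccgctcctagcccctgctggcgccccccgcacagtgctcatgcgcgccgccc
The *Otor* window held a TATA box beginning at base -35 and an E-box at -48, while the *Tectb* window held a SOX match at -76 and a GATA match at -67. The *Tecta* window, which belongs to the start nearer to the gene body of the 2 that RefSeq lists, held E-boxes at -174 and -58, and that of *Otog* 1 E-box at its far end. In *Coch*, where 74.8% of the bases were G or C, none of the 5 motifs was found. Among 32851 RefSeq mouse promoter windows of the same length, 44.8% held an E-box, 12.4% a TATA box, 10.7% the SOX, 9.99% the GATA and 4.84% the homeodomain letters. A match is a description of the letters and no evidence of binding.

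The 7 genes separated into 2 sets across the classes. *Tecta*, *Tectb*, *Otoa*, *Otog* and *Oc90* reached their highest plate levels in hair cells or otic epithelium, whereas *Otor* and *Coch* reached theirs in OM-like cells. OM-like cells held 97.9% of all *Otor* counts and 65.9% of all *Coch* counts. Most of the remaining *Coch* counts lay in SGN-like cells (32.6%), which also held 27.0% of the *Tectb* counts.

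**Figure D1:**
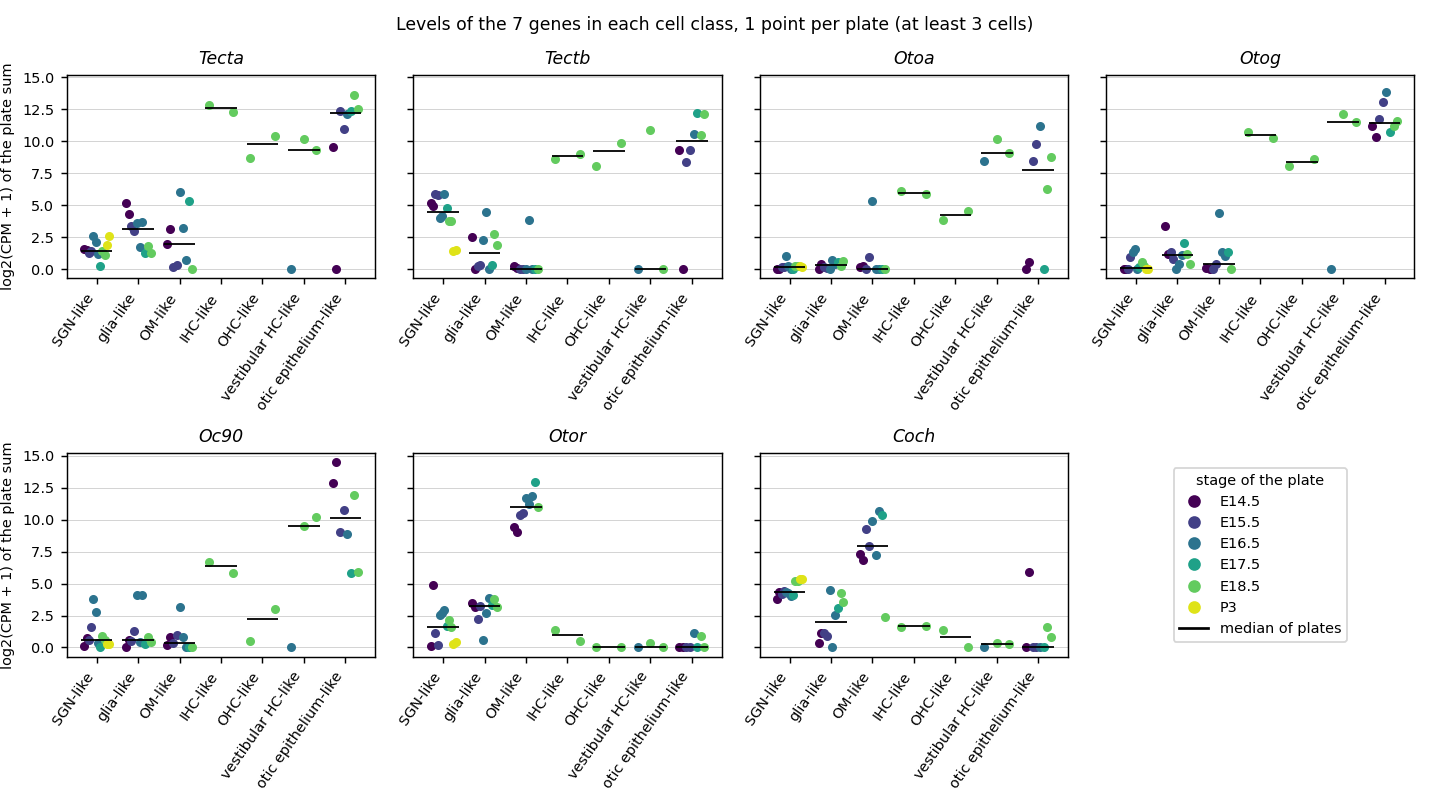
Level of each of the 7 genes in each cell class, as log2(CPM + 1) of the summed counts of a class on a plate, with 1 point per plate that has at least 3 cells of the class, coloured by stage, and a black line at the median. *Otor* in OM-like cells lies between 524 and 7767 CPM, above every plate of every other class, while *Otog* lies at 1309 CPM or more in otic epithelium-like cells and at or below 2.003 CPM in SGN-like cells.

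Cochlear hair cells were first compared with neurons of the same plates, at E18.5. All 7 genes differed between cochlear HC-like and SGN-like cells. *Tecta* stood at 3371 and 4340 CPM in HC-like cells on plates 1 and 2, and at 1.69 and 1.15 CPM in SGN-like cells. *Otog* stood at 897 and 1078 CPM against 0.461 and 0.221 CPM. The 2 classes were thus far apart on both plates, with log2 fold changes of 11.38 for *Tecta* (SE 0.33, adjusted p = 3.39e-05 in edgeR) and 11.51 for *Otog* (SE 0.39, adjusted p = 4.14e-05 in edgeR). *Tectb* was at 327 and 603 CPM in HC-like and at 12.6 and 13.0 CPM in SGN-like cells, a log2 fold change of 5.15 (SE 0.36, adjusted p = 2.70e-04 in edgeR). *Otoa* was at 37.1 and 50.6 CPM against 0.199 and 0.169 CPM, and rose by 7.85 on the log2 scale (SE 0.34, adjusted p = 7.07e-05 in edgeR). *Oc90* was at 45.4 and 46.9 CPM against 0.838 and 0.478 CPM, with a log2 fold change of 6.10 (SE 0.36, adjusted p = 1.59e-04 in edgeR). *Tecta*, *Tectb*, *Otoa*, *Otog* and *Oc90* therefore shared 1 direction, with higher RNA levels in HC-like cells on both plates.

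The 2 mesenchymal genes ran the other way. *Coch* was at 1.80 and 1.78 CPM in HC-like and 34.9 and 36.4 CPM in SGN-like cells, a log2 fold change of -4.36 (SE 0.25, adjusted p = 1.55e-04 in edgeR). *Otor* was near its floor in HC-like cells, with 3 and 2 counts, and low in SGN-like cells, at 3.45 and 2.07 CPM (329 and 281 counts). Its log2 fold change of -2.50 (SE 0.64, adjusted p = 0.0239 in edgeR) was no longer called with the plate as a block (adjusted p = 0.0568, range over the alternatives 0.00919 to 0.0568). Thus 5 of 7 genes were higher and 2 lower, where 24.0% of the 15788 tested genes were called higher and 28.2% lower (52.2% in all). The median log2 fold change of the 7 genes was 6.10, beside -0.13 for all tested genes. In HC-like cells the 8 epithelial and supporting cell markers summed to 2378 and 2567 CPM, and in SGN-like cells of E18.5 to 80.1 and 72.1 CPM; their part in these differences was not tested. Plates are the replicates throughout, so p-values measure the spread between plates, which pool animals.

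Corrected for the length of the exons, *Tecta* led in cochlear HC-like cells at 455 and 586 CPM per kilobase (the 2 plates). On the same scale came *Tectb* at 85.7 and 158, *Otog* at 86.7 and 104, *Oc90* at 23.7 and 24.5, and *Otoa* at 4.39 and 6.00 CPM per kilobase. *Tectb* and *Otog* overlapped and their order is open, whereas the other steps were wider than the spread between the plates. *Coch* (0.595 and 0.600) and *Otor* (0.3757 and 0.7104 CPM per kilobase) came last and overlapped each other.

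IHC-like and OHC-like cells were then set against each other on the same 2 plates, with 6 and 13 IHC-like and 8 and 3 OHC-like cells. *Tecta* was at 7199 and 5111 CPM in IHC-like and at 405 and 1338 CPM in OHC-like cells. *Otog* was at 1705 and 1251 CPM in IHC-like and at 271 and 401 CPM in OHC-like cells. Every IHC-like plate sum lay above every OHC-like one. The log2 fold changes of OHC-like against IHC-like cells were -2.87 for *Tecta* (SE 0.41, adjusted p = 1.21e-03 in edgeR) and -2.19 for *Otog* (SE 0.21, adjusted p = 8.19e-05 in edgeR). The IHC-like cells were uneven, however. On plate 2 their cluster 5 (7 cells) gave 7197 CPM of *Tecta* and 1855 CPM of *Otog*. Their cluster 6 (6 cells) gave 2279 and 431.5 CPM, beside 1338 and 401 CPM in OHC-like cells. At E18.5, 3 of 19 IHC-like cells held no *Tecta* and 4 no *Otog*, whereas all 11 OHC-like cells held both. *Oc90* was at 103.5 and 57.1 CPM against 0.399 and 6.98 CPM, a log2 fold change of -4.86 (SE 0.77, adjusted p = 2.42e-03 in edgeR). *Otoa* was lower in OHC-like cells too, at 13.6 and 22.7 CPM against 67.4 and 57.8 CPM (log2 fold change -1.87, SE 0.42, adjusted p = 0.0183 in edgeR). Its call was lost when the 5% of cells with the most counts were left out (adjusted p = 0.0800, range over the alternatives 9.78e-04 to 0.0800). *Tectb*, in contrast, was at 400.0 and 518.5 CPM in IHC-like and 271 and 931 CPM in OHC-like cells, and these overlapped (log2 fold change 0.32, SE 0.41, adjusted p = 0.750 in edgeR). Of the 5 genes tested, 4 were lower in OHC-like cells and none higher, beside 4.68% of all genes called lower and 3.56% higher (8.24% in all). *Coch* and *Otor* did not pass the filter on low counts. The 2 types also differed in other markers. The 8 glial markers summed to 909.9 and 959.6 CPM in IHC-like against 109.9 and 233 CPM in OHC-like cells, and the 8 epithelial markers to 2720 and 2827 against 1971 and 2030 CPM. Their part in the difference was not tested.

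In plate sums, vestibular HC-like cells held more *Oc90*, *Otoa* and *Otog* and less *Tecta* than cochlear ones. *Oc90*, the otoconial gene, stood at 720 and 1152 CPM in vestibular and 45.4 and 46.9 CPM in cochlear HC-like cells, a log2 fold change of 4.34 (SE 0.28, adjusted p = 3.28e-04 in edgeR). Few cells carried these sums: over all stages, 5 of the 33 vestibular HC-like cells held 87.0% of their *Oc90* counts. Per cell at E18.5, the *Oc90* median was 24.45 CPM in vestibular, 56.4 CPM in IHC-like and 0 in OHC-like cells. *Otoa* was at 1183 and 540.0 CPM against 37.1 and 50.6 CPM (log2 fold change 4.30, SE 0.41, adjusted p = 1.05e-03 in edgeR). *Otog* was at 4586 and 2869 CPM against 897 and 1078 CPM (log2 fold change 1.92, SE 0.25, adjusted p = 3.43e-03 in edgeR). The sums of all 3 were higher on both plates without overlap. The share of cells with *Otog* did not follow its sums, since 15 of 26 vestibular and 26 of 30 cochlear HC-like cells held it at E18.5. *Tecta* went the opposite way, with 1180 and 637 CPM in vestibular and 3371 and 4340 CPM in cochlear HC-like cells (log2 fold change -2.08, SE 0.30, adjusted p = 5.12e-03 in edgeR). For *Tectb* the 2 plates disagreed. Plate 1 gave 1868 CPM in vestibular HC-like cells and plate 2 gave 0 counts in 13 cells, against 327 and 603 CPM in cochlear HC-like cells. On plate 1 a single cell held 82.3% of the 7171 counts, and 4 of its 13 cells held any. The resulting log2 fold change of 1.02 (SE 1.73, adjusted p = 0.805 in edgeR) rested on plate 1, since plate 2 alone gave -10.58, with no test. Without the filter on low counts, *Tectb* was called at an adjusted p of 5.60e-05 (range over the alternatives 5.60e-05 to 0.947), with its plates just as far apart. Hence 3 of 5 tested genes were higher and 1 lower, where 5.87% of all genes were called higher and 4.27% lower (10.1% in all). Other markers differed as well. On the same plates the 8 glial markers summed to 277 and 206 CPM in vestibular against 550.3 and 746 CPM in cochlear HC-like cells, the 10 mesenchyme markers to 112 and 47.4 against 254 and 180.4 CPM, and the 9 neuronal markers to 1723 and 1406 against 964 and 1115 CPM. Their part in these differences was not tested.

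Otic epithelium-like cells, which carry *Epcam* and other epithelial markers, were found on 8 plates from E14.5 to E18.5. They were tested against SGN-like cells on the 6 of these plates that form 1 name series (E14.5 to E17.5), a comparison added after the clusters had been seen. *Otog* was detected in all 44 of these cells and ranged over the plates from 1309 to 14740 CPM, with a median of 2730 CPM. Its level in SGN-like cells of any plate did not exceed 2.003 CPM, and the log2 fold change was 14.62 (SE 1.26, adjusted p = 9.81e-05 in edgeR). *Oc90* ran from 55.4 to 23140 CPM (median 1140) and was higher by 11.73 on the log2 scale (SE 1.38, adjusted p = 5.32e-04 in edgeR). *Tecta* ran from 0 to 12830 CPM (median 4854), with a log2 fold change of 10.41 (SE 1.80, adjusted p = 3.94e-03 in edgeR). The single plate without *Tecta* was E14.5 plate 2, whose 8 cells also held no *Tectb* but the most *Oc90*. *Tectb* ran from 0 to 4702 CPM (median 1042) and was just past the threshold (log2 fold change 3.76, SE 1.17, adjusted p = 0.0498 in edgeR), which it missed with the plate as a block (adjusted p = 0.126, range over the alternatives 1.08e-03 to 0.240). *Coch* was at 0 in 5 of 8 plates and was not called (adjusted p = 0.220 in edgeR, range over the alternatives 3.53e-03 to 0.447). *Otoa* ran from 0 to 2381 CPM (median 210.7) and *Otor* from 0 to 1.152 CPM, and neither passed the filter on low counts in this test. So 4 of 5 tested genes were higher, beside 5.32% of 12176 genes called higher and 13.3% lower (18.7% in all), with a median log2 fold change of -0.70 over all genes.

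The epithelial levels also differed by stage. *Oc90* was at 7320 and 23140 CPM on the E14.5 plates, between 55.4 and 1754 CPM on the 4 plates from E15.5 to E17.5, and at 3856 and 57.8 CPM at E18.5. *Tecta* was at 742 and 0 CPM at E14.5, between 1986 and 5298 CPM from E15.5 to E17.5, and at 12830 and 5922 CPM at E18.5. The E14.5 values thus lay above all later plates for *Oc90* and below them for *Tecta*, but these sums held only 3 to 10 cells each, and no test between the stages was made. Hair cell genes were higher at E18.5 as well, but not on the earlier plates. The 8 hair cell markers summed to between 0 and 561 CPM on the plates up to E17.5 and to 3464 and 2328 CPM at E18.5. *Otof*, which encodes the synaptic protein otoferlin, was found in 3 of 31 epithelium-like cells before E18.5, at up to 91.2 CPM, and in 11 of 13 at E18.5, at 447 to 2545 CPM. The part of hair cell RNA in the E18.5 levels was not tested, and the E18.5 plates did not enter the test against SGN-like cells.

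Hair cells and epithelium were clustered once more together, which split the class levels into narrower groups. Among the epithelium-like cells, cluster 3 (15 cells), led by *Ctgf* and the connexin gene *Gjb2*, had *Tecta* at a median of 12820 CPM per cell, *Tectb* at 1098 CPM and *Oc90* at 105.8 CPM. Cluster 0 (29 cells), led by *Epyc*, *Bmp4* and *Oc90*, had *Oc90* at a median of 2167 CPM, *Tecta* at 528 CPM and *Tectb* at 0, although 11 of its cells held *Tectb*. *Otog* did not separate the 2 groups, with medians of 2749 and 2715 CPM and a count in every cell of both. All 9 cells of cluster 3 from E18.5 also held the hair cell genes *Otof* and *Pou4f3* (42.9 to 148 CPM), with *Tecta* at 9528 to 20910 CPM. Its 6 earlier cells held neither, with *Tecta* at 7023 to 13570 CPM. Cluster 3 came mostly from later plates (9 of 15 cells from E18.5), and cluster 0 mostly from E14.5 (12 of 29 cells) and E15.5 (8 cells).

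IHC-like cells fell into 2 clusters of 11 and 10 cells. In cluster 5 the median of *Tecta* was 8095 CPM and that of *Otog* 1973 CPM, and all 11 cells held *Tecta*, *Tectb*, *Otoa*, *Otog* and *Oc90*. In cluster 6 the medians were 34.9 CPM for *Tecta* and 0 for *Otog*, and 4 of 10 cells held *Otog*. Both held hair cell genes: the medians of *Otof* were 2748 and 3257 CPM, and those of the hair cell factor *Pou4f3* were 223.5 and 311 CPM. The connexin gene *Gjb2* was at a median of 1741 CPM in cluster 5 and 2.065 CPM in cluster 6, and the Notch ligand gene *Jag1* at 803 and 17.55 CPM. By in situ hybridization at E18.5, the paper found *Gjb2* RNA in supporting cells and also in IHCs. The OHC-like cells formed a single cluster, in which *Tecta* (median 417 CPM) and *Otog* (median 292 CPM) were present in all 13 cells with *Gjb2* at a median of 14.1 CPM.

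The vestibular HC-like cells also split. Cluster 1 (18 cells) was led by *Ocm*, which encodes the calcium-binding protein oncomodulin, and cluster 2 (15 cells) by *Des* and *Pcdh20*. *Otoa* was at medians of 863 and 449 CPM and was present in 15 and 13 cells. *Otog* was present in 6 of 18 cells of cluster 1 and in 13 of 15 cells of cluster 2, with a median of 4124 CPM in the latter. *Tectb* was found in 4 cells of cluster 1, at a mean of 1393 CPM over the cluster, and in 2 cells of cluster 2, at a mean of 4.80 CPM. At E18.5 the 10 cells of cluster 1 on plate 1 gave 2524 CPM of *Tectb* and its 5 cells on plate 2 gave none.

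**Figure D2:**
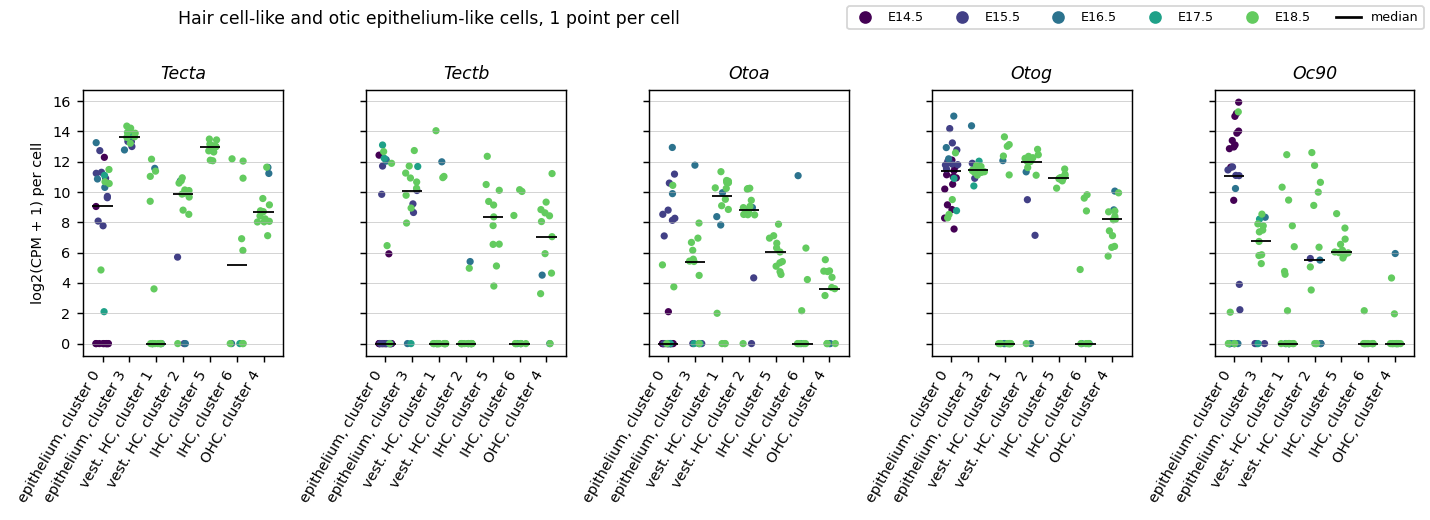
Level of 5 genes in each hair cell-like and otic epithelium-like cell, as log2(CPM + 1) per cell, by cluster, with 1 point per cell coloured by stage and a line at the median. *Tecta* is high in all 15 cells of epithelium cluster 3 and all 11 cells of IHC cluster 5, and *Otoa* has its highest medians, 863 and 449 CPM, in the 2 vestibular clusters. The highest *Otoa* value of a single cell, 7867 CPM, is in an otic epithelium-like cell.

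Whether a hair cell-like well held *Otog* went with how many genes were detected in it. The 15 IHC-like cells with *Otog* had 8806 to 11834 genes, and the 6 without it had 1057 to 8577. Of the vestibular HC-like cells, the 19 with *Otog* had 6865 to 12596 genes and the 14 without it 3071 to 8298. All 13 OHC-like cells held *Otog* and had 8882 to 11390 genes. Epithelial genes followed the same division. *Epcam* had a median of 1108 CPM in IHC-like cells with *Otog* and 188 CPM in those without, and 1181 against 87.8 CPM in vestibular HC-like cells. *Gjb2* was found in 15 of 15 and 1 of 6 IHC-like cells, and in 17 of 19 and 0 of 14 vestibular HC-like cells. *Otoa* behaved differently: 10 of the 14 vestibular HC-like cells without *Otog* held it, at up to 1648 CPM, while 1 of them held *Tecta* and none *Tectb*. All 67 HC-like cells held *Pou4f3* and *Otof*. Over these cells the Spearman rank correlation with the number of detected genes was 0.79 for *Otog*, 0.64 for *Tecta*, 0.51 for *Tectb*, 0.22 for *Otoa* and -0.32 for *Otof* (n = 67 cells from 6 plates). Whether wells with many genes held more than 1 cell, or hair cells with epithelial character, was not tested.

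**Figure D3:**
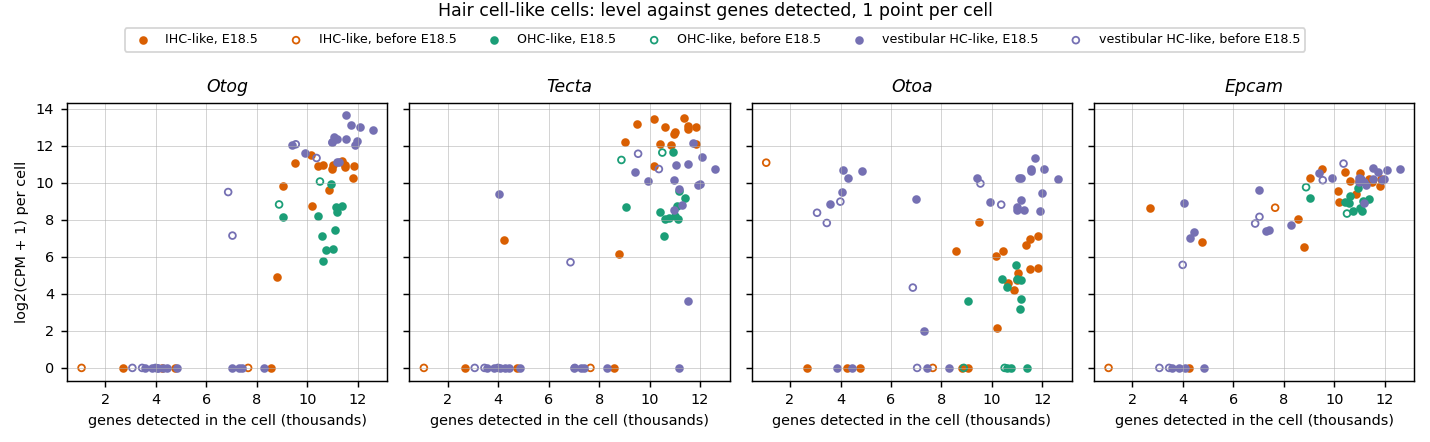
Level of *Otog*, *Tecta*, *Otoa* and *Epcam*, as log2(CPM + 1) per cell, against the number of genes detected in the cell, in units of 1000, for the IHC-like, OHC-like and vestibular HC-like cells, filled at E18.5 and open before it. *Otog* is at 0 in every cell with fewer than 6865 genes, whereas *Otoa* is present in vestibular HC-like cells with as few as 3071 genes.

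In the mesenchyme, *Otor* and *Coch* were the 2 genes of the set that stood out. *Otor* ran from 524 to 7767 CPM over the 9 plates with at least 3 OM-like cells (median 2018). It did not exceed 28.0 CPM in SGN-like or 13.9 CPM in glia-like cells of any plate. The tests were made on the 6 plates of the name series that includes E14.5 and E15.5, with stage as a term. There *Otor* had a log2 fold change of 8.71 against SGN-like (SE 1.25, adjusted p = 2.59e-05 in edgeR) and of 7.96 against glia-like cells (SE 1.16, adjusted p = 1.11e-04 in edgeR). *Coch* ran from 4.33 to 1640 CPM in OM-like cells (median 247), and the low end came from 3 cells at E18.5. It was higher than in SGN-like cells by 4.48 on the log2 scale (SE 0.57, adjusted p = 7.26e-06 in edgeR) and higher than in glia-like cells by 8.02 (SE 0.65, adjusted p = 5.72e-07 in edgeR). Both calls held under every alternative run, with lowest log2 fold changes of 7.19 for *Otor* and 3.68 for *Coch*. *Otor* was detected in 57.1% and *Coch* in 30.6% of the 566 OM-like cells. After each cell was thinned to 100000 counts, which left out 14 of them, these shares were 55.1% (95% exact binomial interval 50.8 to 59.3) and 28.6% (24.9 to 32.6).

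*Tectb* was nearly absent from the mesenchyme of that series, with 7 and 5 counts at E14.5 and none on the 4 later plates, beside 26.0 to 58.1 CPM in SGN-like cells of the same plates. It was called lower than in SGN-like cells (log2 fold change -10.49, SE 1.32, adjusted p = 6.77e-06 in edgeR), and this size depends on the prior count that the fit adds to zeros. Against glia-like cells the log2 fold change was -3.66 (SE 1.19, adjusted p = 0.0312 in edgeR). That call was lost with the plate as a block (adjusted p = 0.0869), and its adjusted p ran from 2.87e-03 to 0.600 over the alternatives. *Tecta*, *Otog* and *Oc90* were called in neither comparison, and *Otoa* did not pass the filter. With 2 genes higher and 1 lower of 6 tested, the shares against SGN-like cells stand beside 30.3% of all genes called higher and 27.9% lower (58.2% in all). Against glia-like cells, again with 2 higher and 1 lower, the background was 13.4% higher and 14.6% lower (28.0% in all).

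Both genes had higher levels on most later plates of OM-like cells, though no stage difference was called in edgeR. *Otor* was at 679 and 524 CPM at E14.5, 1303 and 1445 CPM at E15.5, 3382, 2366 and 3607 CPM at E16.5, and 7767 CPM at E17.5. Every plate of a stage lay above every plate of the stage before, until E18.5, where 3 cells gave 2018 CPM. *Coch* was at 155 and 113 CPM at E14.5, 619 and 247 CPM at E15.5, 941, 150 and 1640 CPM at E16.5, and 1334 CPM at E17.5, with an overlap between E14.5 and E16.5. The 4 later plates of 1 series were tested against the 2 of E14.5. *Otor* then had a log2 fold change of 2.61 (SE 0.78, adjusted p = 0.665 in edgeR) and *Coch* of 2.89 (SE 0.73, adjusted p = 0.577 in edgeR). Neither was called. In that test 0 of 14264 genes (0%) passed in edgeR, 814 had an unadjusted p under 0.05, and DESeq2 called 157, among them *Coch* (adjusted p = 0.0376). The difference between this change in OM-like and that in glia-like cells was not called for any of the 6 genes tested (adjusted p of 0.552 or more; 4 of 17082 genes called).

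The cells behind these sums were not the same at every stage. Among 12 clusters of OM-like cells, *Otor* and *Coch* had their highest means over cells in cluster 6, at 7847 and 2916 CPM per cell. Clusters drew on different plates, however, and on E16.5 plate 3 *Otor* was at 5650 CPM in cluster 6 and at 6271 CPM in cluster 9, so the order for *Otor* depends on the plate. Its 44 cells held *Otor* in 43 and *Coch* in 40 cases, and 17 of them came from E16.5 and 21 from E17.5. The cluster was led by *Clec3a*, a cartilage lectin, and *Coch* and *Otor* themselves were among its leading genes. Other clusters held 1 of the 2 genes. Cluster 7 (44 cells), led by *Gdf10* and *Thbd*, had *Otor* at a mean of 1961 CPM and *Coch* at 2.97 CPM, and was found from E14.5 to E17.5 with *Otor* at 937 to 2694 CPM on every one of 6 plates. Cluster 4 (48 cells), led by *Itga11* and mitotic genes and nearly confined to E14.5 (47 cells), had *Coch* at 656 CPM and *Otor* at 193 CPM. In cluster 3 (53 cells, all from E14.5), led by the joint-forming gene *Gdf5*, *Coch* had no count in any cell and *Otor* a mean of 203 CPM. In cluster 8 (43 cells) both were at 8.93 and 8.95 CPM. Within cluster 7, read on all 6 plates, *Otor* was at 2454 and 937 CPM at E14.5 and at 1808, 1181, 2694 and 2306 CPM on the later plates, so the 2 groups of plates overlapped. Cluster 0, also read on 6 plates, overlapped too, at 643.8 and 115.1 CPM at E14.5 and at 396.1, 263.3, 838.3 and 477.0 CPM later. So did cluster 1, at 71.64 and 261.4 CPM at E14.5 and at 250.8, 98.72 and 1138 CPM later. In clusters 2 and 9, in contrast, the later plates lay above both E14.5 plates. The same held for 3 cells of E16.5 in cluster 5 (4639 CPM, beside 4033 and 1531 CPM at E14.5). *Otor* in cluster 2 was at 524.6 and 1665 CPM at E14.5 and at 2417, 3255 and 4014 CPM later. In cluster 9 it was at 135 and 636.5 CPM at E14.5 and at 8130, 6271 and 7922 CPM later, from 3 to 12 cells a plate. *Coch* went both ways. In cluster 0 it was at 113.6 and 70.12 CPM at E14.5 and at 0, 1.465, 69.93 and 0 CPM later, and it was lower later in cluster 1 too. In cluster 9 it was at 0 and 235.6 CPM at E14.5 and at 2271, 2748 and 704.4 CPM later. Its plates overlapped in clusters 2, 5 and 7.

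Some of the OM-like clusters carried genes of other tissues. Cluster 9 (40 cells) was led by the muscle genes *Actc1*, *Acta2* and *Myog*, and cluster 11 (15 cells) by neuronal genes such as *Tubb3*. Cluster 5 (47 cells, *Otor* at a mean of 3399 CPM) was led by globin and endothelial genes. *Otor* was at means of 6384 CPM in cluster 9 and 1360 CPM in cluster 11. Leaving clusters 9 and 11 out of the class, an alternative chosen after seeing the data, changed no call of *Otor* or *Coch*, while *Tecta* was then called lower than in glia-like cells (log2 fold change -3.52, adjusted p = 1.05e-03 in edgeR, range over the alternatives 1.05e-03 to 0.983). *Tecta* was at a mean of 43.2 CPM in cluster 10 (38 cells), led by the cartilage genes *Matn1* and *Acan*, with counts in 10 cells, was at 56.7 CPM in cluster 9, from 3 cells, and did not exceed 4.24 CPM in any of the other clusters.

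**Figure D4:**
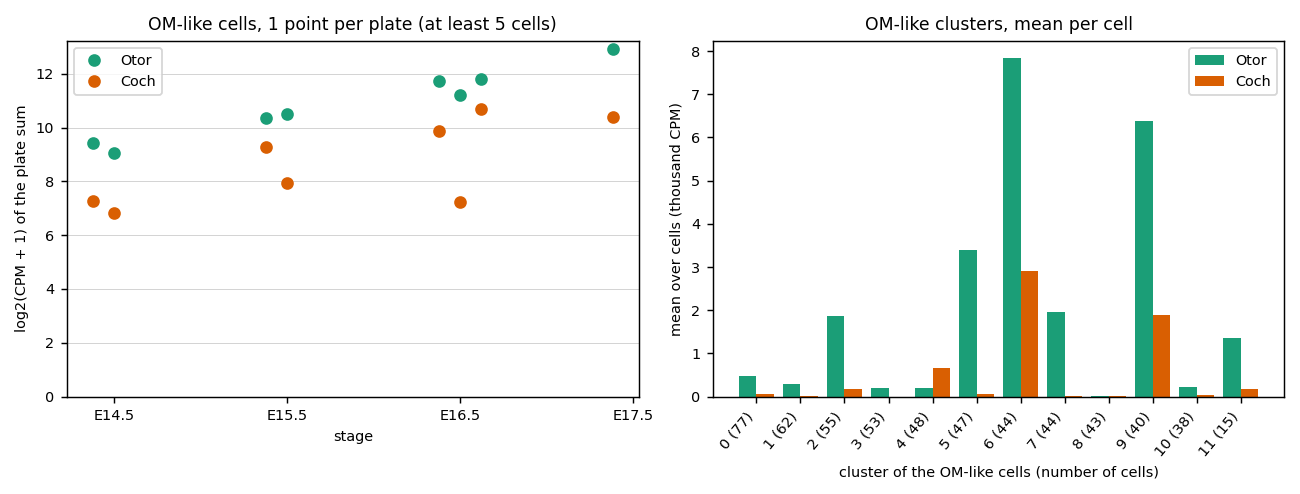
Left, *Otor* and *Coch* in OM-like cells as log2(CPM + 1) of the plate sums, with 1 point per plate of at least 5 cells, by stage. Right, their means per cell in units of 1000 CPM in each of the 12 clusters of OM-like cells, with the number of cells in brackets; bars start at 0 and show no error. *Otor* is at 524 and 679 CPM on the E14.5 plates and at 7767 CPM on the single E17.5 plate, a stage difference that was not called, and cluster 6 has the highest mean over cells for both genes.

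In neurons, *Tectb* and *Coch* had the highest median levels of the set over the plates, at 5.61 and 6.46 CPM per kilobase. *Otor* had a median of 2.22 CPM per kilobase but reached 29.5 on its highest plate, above the highest of *Tectb* (15.2) and *Coch* (13.5). *Tectb* was detected in 20.3% and *Coch* in 47.2% of 2279 SGN-like cells. At a fixed depth of 100000 counts (2246 cells) these shares were 17.8% (95% exact binomial interval 16.3 to 19.5) and 42.7% (40.6 to 44.7). The same measure gave 1.48% (0.863 to 2.35) for *Tectb* and 5.47% (4.23 to 6.95) for *Coch* in 1151 glia-like cells, and 0.544% (0.112 to 1.58) for *Tectb* in 552 OM-like cells. These shares pool stages that the classes hold in unlike proportions. At E14.5 *Coch* was in 18.9% of SGN-like and 2.46% of glia-like cells, and *Tectb* in 18.9% and 0.985%. At E18.5, with 53 glia-like cells, the shares were 61.8% and 47.2% for *Coch* and 21.6% and 13.2% for *Tectb*. On the plate sums, both genes were lower in glia-like than in SGN-like cells: *Tectb* by a log2 fold change of -6.83 (SE 1.08, adjusted p = 6.46e-05 in edgeR) and *Coch* by -3.54 (SE 0.57, adjusted p = 7.32e-05 in edgeR). Both calls held under every alternative run. The intervals cover counting error only.

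In neurons, *Tectb* was lower at P3 than at E18.5 and *Coch* was higher at E18.5 than at E14.5, and neither was called in the other interval. *Tectb* stood at 35.6 and 29.3 CPM at E14.5 and at 58.1 and 53.9 CPM at E15.5. At E16.5 it was at 57.5 CPM on plate 3, which belongs to the same name series, and at 14.96 and 16.88 CPM on plates 1 and 2, which do not. It was at 26.0 CPM at E17.5, 12.6 and 13.0 CPM at E18.5, and 1.75 and 1.86 CPM at P3. The 3 plates of E16.5 were thus as far apart as the stages, and stage and plate series cannot be told apart in what follows. From E14.5 to E18.5 the log2 fold change was -1.35 (SE 0.53, adjusted p = 0.0928 in edgeR), which was not called. It was called under 2 of 18 alternatives: DESeq2 (adjusted p = 0.0260) and edgeR without E16.5 plate 3 (-1.34, adjusted p = 7.68e-04). Over all alternatives the adjusted p ran from 7.68e-04 to 0.259. From E18.5 to P3 *Tectb* fell by 2.54 on the log2 scale (SE 0.55, adjusted p = 6.79e-03 in edgeR). Without P3 plate 1 or plate 2 it was not called (adjusted p = 0.0536 and 0.0521), and over all alternatives it ran from 8.67e-06 to 0.0536.

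*Coch* in neurons was at 13.1 and 19.4 CPM at E14.5 and stayed between 15.6 and 20.7 CPM on the 6 plates from E15.5 to E17.5. It was at 34.9 and 36.4 CPM at E18.5 and at 38.9 and 40.5 CPM at P3. The E18.5 and P3 plates lay above all earlier plates, and the log2 fold change from E14.5 to E18.5 was 1.13 (SE 0.23, adjusted p = 4.64e-03 in edgeR), called under every alternative run. The difference between P3 and E18.5 (log2 fold change 0.44, SE 0.22, adjusted p = 0.184 in edgeR) was not called. *Coch* was the only 1 of 7 genes called from E14.5 to E18.5, beside 13.9% of 17792 genes called higher and 9.57% lower (23.5% in all). *Tectb* was the only one called from E18.5 to P3, beside 12.6% higher and 12.2% lower (24.8% in all). The 8 glial markers summed to 26.8 and 45.4 CPM in SGN-like cells at E14.5, and to 3224 and 3324 CPM at E18.5. The 10 mesenchyme markers went from 73.5 and 102 to 559.6 and 483 CPM, and their part in the *Coch* difference was not tested.

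**Figure D5:**
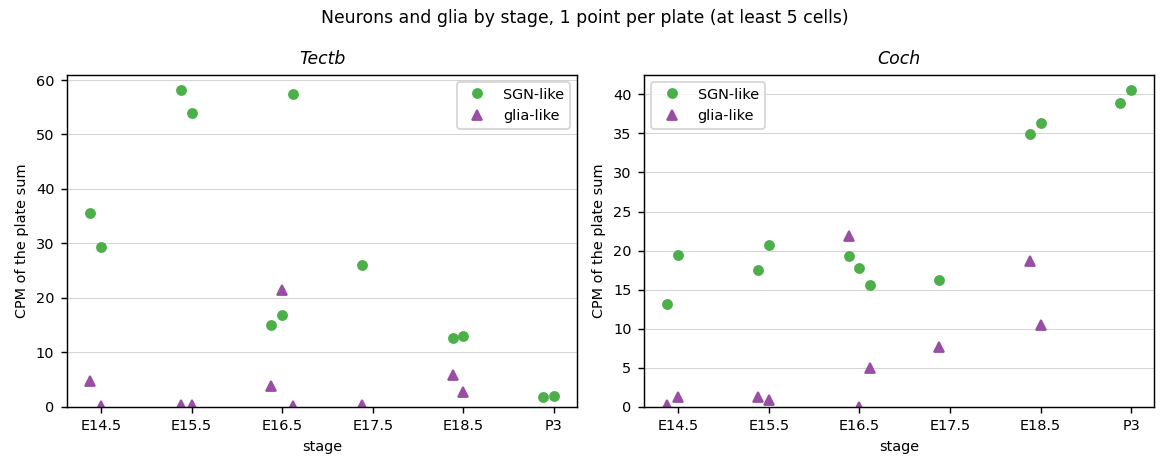
*Tectb* (left) and *Coch* (right) in SGN-like (circles) and glia-like (triangles) cells, in CPM of the summed counts, with 1 point per plate of at least 5 cells, by stage. *Tectb* in SGN-like cells is at 58.1 CPM or less and ends at 1.75 and 1.86 CPM at P3, while *Coch* is at 34.9 CPM or more on the 4 plates of E18.5 and P3.

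*Tectb* was unevenly spread over neuronal clusters. At E16.5 the cluster of 104 cells led by *Hmcn1*, *Crtac1*, *Sema3a* and *Tectb* itself held 72.7 CPM, with counts in 48.1% of its cells. The other 6 neuronal clusters of that stage held 0.256 to 22.6 CPM, the lowest being a cluster of 71 cells led by *Fam19a2* and *Sulf2*. Plate 3 gave 27 of the 104 cells and 16 or fewer of each other cluster. Within plates the first cluster held 54.8, 64.2 and 119 CPM on plates 1, 2 and 3, above the other clusters of at least 3 cells on the same plate (0 to 21.4, 0.362 to 22.5 and 0 to 56.1 CPM). At E17.5 and E18.5 the 50 cells led by *Hmcn1* and *Igfbp2* held 91.9 CPM, with counts in 25 of them, and the other clusters held 1.45 to 23.1 CPM. On its 3 plates the first of these stood at 98.4 CPM (E17.5), 78.2 and 98.6 CPM (E18.5). At P3 no cluster exceeded 3.93 CPM. *Coch* was more even, at 12.9 to 24.3 CPM over the E16.5 clusters, 19 to 46.5 CPM at E17.5 and E18.5, and 18.7 to 71.0 CPM at P3. Its highest value was in 40 cells led by *Calb2* and *Igsf21*. These clusters were made from the same cells and are described without a test.

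Glia-like cells held little of any of the 7 genes. *Tecta* ran from 1.37 to 34.8 CPM over 10 plates (median 8.00) and was highest at E14.5, at 34.8 and 19.4 CPM. It was called higher than in SGN-like cells (log2 fold change 3.04, SE 1.06, adjusted p = 0.0229 in edgeR), as was *Otog* (log2 fold change 4.60, SE 1.81, adjusted p = 0.0407 in edgeR), which ran from 0 to 9.28 CPM. Few cells carried these sums: 5 of the 121 glia-like cells with a *Tecta* count held 44.3% of them, and 5 of the 50 with *Otog* held 59.4%. At fixed depth, 7.21% (95% exact binomial interval 5.78 to 8.86) of glia-like and 7.57% (6.51 to 8.74) of SGN-like cells held *Tecta*, so the share of cells did not follow the sums. Neither call was stable. Over the alternatives the adjusted p ran from 6.70e-04 to 0.117 for *Tecta*, which was lost without E14.5 plate 1 (0.0816), E14.5 plate 2 (0.0702) or E16.5 plate 3 (0.0536), and from 1.34e-03 to 0.129 for *Otog*, which was called under 6 of 14 alternatives. In all, 2 of 6 tested genes were higher and 2 lower, beside 31.1% of all genes higher and 26.8% lower (57.8% in all). In glia-like cells after E14.5, 0 of 16587 genes (0%) passed in edgeR, 2117 had an unadjusted p under 0.05 and DESeq2 called 672. *Tecta* had a log2 fold change of -1.88 there (SE 0.65, adjusted p = 0.325 in edgeR).

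Other matrix genes were read from lists chosen beside the 7. The 6 collagen genes of the tectorial membrane accompanied the tectorins in hair cells. At E18.5, 5 of 6 were higher and 1 lower in cochlear HC-like than in SGN-like cells, beside 24.0% of all genes called higher and 28.2% lower. Their median log2 fold change was 2.65 (all genes -0.13), and *Col9a1* (6.62, SE 0.30, adjusted p = 7.86e-05 in edgeR) and *Col2a1* (4.64, SE 0.16, adjusted p = 4.49e-05 in edgeR) led. All 6 were lower in OHC-like than in IHC-like cells, where 4.68% of all genes were, with a median of -2.20 beside -0.01 for all genes, as in *Col9a1* (-2.90, SE 0.24, adjusted p = 3.04e-05 in edgeR). They were also high in mesenchyme, where 6 of 6 were higher than in SGN-like cells (30.3% of all genes; median 4.18, all genes 0.00) and 5 of 6 higher than in glia-like cells (13.4% of all genes; median 2.83, all genes -0.07). In neurons all 6 were lower at P3 than at E18.5, as were 12.2% of all genes (median -2.36, all genes -0.09), again across a change of plate series.

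Of 3 further tectorial membrane proteins, *Strc*, which encodes stereocilin of the hair bundle links, was higher in HC-like than in SGN-like cells by 10.23 on the log2 scale (SE 0.26, adjusted p = 3.30e-05 in edgeR). *Otogl*, the relative of otogelin, was higher by 8.14 (SE 0.49, adjusted p = 1.69e-04 in edgeR). None of the 3 passed the filter in the mesenchyme comparisons. Of 8 genes for otoconia and endolymph, 2 of 6 tested were higher in vestibular than in cochlear HC-like cells, beside 5.87% of all genes. These were *Otop1*, an ion channel gene needed to form otoconia (11.21, SE 0.79, adjusted p = 6.42e-04 in edgeR), and *Otol1*, which encodes the collagen-like otolin (2.72, SE 0.29, adjusted p = 1.58e-03 in edgeR), alongside *Oc90*. Of 8 fibrocyte and matrix genes, 6 of 6 tested were higher in OM-like than in SGN-like cells, as were 30.3% of all genes (median 7.21, all genes 0.00). Against glia-like cells, 5 of 6 were higher, as were 13.4% of all genes (median 3.23, all genes -0.07). The small proteoglycan genes *Ogn* (7.46, SE 0.89, adjusted p = 3.88e-06 in edgeR) and *Dcn* (7.35, SE 0.68, adjusted p = 3.11e-07 in edgeR) led the first comparison. In cochlear HC-like against SGN-like cells 3 of 8 were higher, namely *Otos* (6.88), *Lum* (4.87) and *Dcn* (1.36), and 1 was lower, beside 24.0% and 28.2% of all genes. *Mia*, in the same family as *Otor*, was higher in OM-like than in SGN-like cells (4.15, SE 1.60, adjusted p = 0.0369 in edgeR). Unlike *Otor*, it was also higher in HC-like cells (9.14, SE 0.42, adjusted p = 8.70e-05 in edgeR). Over all 8 relatives by protein family, 3 of 3 tested were higher in OM-like than in SGN-like cells, and 4 of 7 tested were higher in HC-like cells, beside 30.3% and 24.0% of all genes.

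The pattern of each gene over 46 class sums was compared with that of 16966 genes by Pearson correlation of log2(CPM + 1), as a description, since the sums share plates and classes. *Otog* was closest to *Sox21* (r = 0.98), *Agr3* (0.98) and *Cldn7* (0.97), and *Otor* to *Tbx18* (0.97), *Colec12* (0.95) and *Tgfbi* (0.95). *Tecta* was closest to *Tmprss6* (0.90), with *Otog* itself next (0.89). *Oc90* was closest to *Agr3*, *Cldn4* and *Cldn6* (0.88 each), *Otoa* to *Smim22* (0.88), *Coch* to 2700069I18Rik (0.87) and *Tectb* to *Wnt7a* (0.85). Within the set, *Coch* and *Otor* correlated at 0.74, and each was negatively correlated with all 5 of the other genes (r from -0.56 to -0.35). *Tecta* and *Tectb*, which encode partners in 1 matrix, correlated at 0.76, below *Tecta* and *Otog* at 0.89.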

How the data were processed

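The authors sorted TOM+ cells, made Smart-seq2 libraries and aligned them to mm10 with STAR, keeping uniquely mapped reads, and counted reads with featureCounts. They deposited raw counts per gene and cell, with no molecule barcodes. The counting annotation and strand setting are not given in the sources used here. The wells of 1 plate (384) match no sample label and were not used. Cells with over 1000 genes and under 5% spike-in counts were clustered with scanpy 1.11.5 and leidenalg 0.10.2 (2000 variable genes, 30 components, 30 neighbours, resolution 1), without the 7 genes, the matrix lists and 1364 glial code genes. Clusters were named from markers (score of at least 0.15, 3 or more detected), by a rule revised after clusters had been seen. For the hair cell types the floor of 0.15 was not applied. The only OHC-like cluster scored 0.131 for OHC markers and 0.047 for IHC markers, so its name is less sure. No doublet caller was run. Instead, the 5% of cells with the most counts were left out as an alternative.

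Counts were summed per plate and class (at least 5 cells, 3 for hair cells and epithelium) and tested, two-sided, with edgeR 4.0.16 in R 4.3.3 (TMM, filterByExpr, quasi-likelihood, Benjamini-Hochberg over all genes tested, called under 0.05), after tests on simulated data. Class comparisons from E14.5 to E17.5 used the 6 plates of 1 name series with stage as a term, and the neuronal stage comparisons used all 12 plates. Plate series and age cannot be told apart at E18.5 and P3. Alternatives were DESeq2 1.42.0, RLE factors, no filter, other clusterings, all embryonic plates, each plate left out and the plate as a block. The 2 classes of a plate share its animals and so are paired. Their deviations from the class means correlated at 0.04 to 0.26 between neurons, glia and mesenchyme, at 0.22 between hair cells and neurons, at -0.01 between hair cell organs and at 0.07 between hair cell types. Named genes are the 7 and at most 4 called genes of each list. Other genes are named as cluster leaders or by likeness. The 7 genes and the lists were chosen with earlier results of these data known. Depth ran from 80997594 to 303906928 counts per plate. Binomial intervals are exact and cover counting error only.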

Additional observations from a re-analysis of the deposited data

Results flagged for a closer look

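Within the 4 plates of E15.5 to E17.5 that form 1 name series, the highest or lowest plate stood far from the other 3 for 7 of 26 combinations of gene and class. The rule is set to flag about 1 in 20 for normally distributed values. A gene at 0 on 3 plates and above 0 on the other is always flagged, however. The number flagged is therefore no measure of an excess, and these plates also differ in stage. In SGN-like cells this was *Tectb* at 26.0 CPM on the E17.5 plate and *Otog* at 0.9246 CPM on E15.5 plate 2. In glia-like cells it was *Tectb* at 0.03766 CPM and *Oc90* at 16.42 CPM, both on E16.5 plate 3. In OM-like cells it was *Tecta* at 39.61 CPM on the E17.5 plate and *Otoa* at 0.9155 CPM on E15.5 plate 2. In otic epithelium-like cells it was *Otor* at 1.152 CPM on E16.5 plate 3, which is a single count.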

How the results depend on the processing

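Of 142 counts of called genes under an alternative, 124 stayed within 1.5 times the main count and 18 did not. Of the values of the 7 genes, 800 kept their direction and their side of the threshold (among them 1 untested value of *Tectb* with another sign, within the spread), 30 lost and 19 gained a call, 27 tested values changed sign, and 4 untested hair cell values with an E18.5 plate left out moved by more than their spread. No value called in the main comparison changed sign, and 2 sign changes passed the threshold. These were *Otor* in SGN-like cells from E14.5 to E18.5 (-2.34, not called), which was 3.24 with the glial code genes kept in the clustering and 5.54 without E14.5 plate 2, the plate labelled TrkCcre, and -3.33 to 5.54 over all plates left out. The other sign changes were not called on either side. With clusters 9 and 11 left out, *Tecta* (0.80) and *Otog* (1.24) in OM-like against SGN-like cells became -0.58 and -1.11, and *Tecta* in OM-like cells after E14.5 (1.01) became -4.07. With the glial code genes kept, the 2 *Tecta* values became -0.02 and -3.55, and *Otor* in glia-like cells after E14.5 (-0.06) became 0.26. With all embryonic plates, *Tecta* in OM-like against glia-like cells (-2.24) was 0.04 and *Tectb* in glia-like cells after E14.5 (-3.72) was 0.75. Without the 5% of cells with the most counts, *Tecta* in OM-like cells after E14.5 was -3.26 and *Otoa* in SGN-like cells from E18.5 to P3 (-0.06) was 0.43. At the finer clustering, glia-like cells after E14.5 gave 0.60 for *Tecta* (-1.88), 5.89 for *Tectb*, -0.62 for *Otoa* (0.60) and 2.05 for *Otog* (-1.70). With a plate left out, *Tecta* ran from -0.46 to 1.60 in OM-like against SGN-like cells and from -3.86 to 1.83 in OM-like cells after E14.5, and *Otoa* from -0.41 to 0.20 in SGN-like cells from E18.5 to P3. In glia-like cells after E14.5, *Tectb* then ran from -4.71 to 2.23, *Otoa* from -0.39 to 6.61, *Otog* from -2.51 to 0.33 and *Otor* from -0.36 to 0.20. Without an E18.5 plate, *Tectb* in vestibular against cochlear HC-like cells (1.02) was -10.58 on plate 2 alone and *Tectb* in OHC-like against IHC-like cells (0.32) was -0.59 on plate 1 alone, both untested; the first was -2.29 with the plate as a block. Genes called between vestibular and cochlear HC-like cells numbered 2139 without the filter (1289 with it), and DESeq2 called 4246 between epithelium-like and SGN-like cells (edgeR 2272). The stage comparison of OM-like cells, with 0 calls, gave 157 with DESeq2, 4 with the glial code genes kept, 16 without the filter and 0 to 3 with a plate left out. That of glia-like cells, also with 0 calls, gave 672 with DESeq2, 309 at the finer clustering, 1 with all embryonic plates, 7 without the filter and 0 to 10 with a plate left out. In SGN-like cells, leaving out a plate gave 2142 to 4996 calls from E14.5 to E18.5 (4183) and 2136 to 5220 from E18.5 to P3 (4410). The causes were not tested. When plates entered the fit as a replicate block, calls numbered 8468 between OM-like and SGN-like, 3912 between OM-like and glia-like, 8399 between glia-like and SGN-like, 7731 between HC-like and SGN-like, 938 between vestibular and cochlear HC-like, 1086 between OHC-like and IHC-like and 1525 between epithelium-like and SGN-like cells. Among the 7 genes the block ended the calls of *Tectb* in OM-like against glia-like and in epithelium-like against SGN-like cells and of *Otor* in HC-like cells, and changed no other. Leaving out an E18.5 plate left 1 hair cell sum against 1, so those values carry no test. Depth limits *Otor* in hair cells and *Tectb* in mesenchyme, which rest on a few counts.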
